A study of Mus musculus with 6 samples.

Results

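The amino acid stress response genes described here are the transcription factors Atf4, Atf5 and Ddit3, the stress effectors Chac1, Trib3 and Ddit4, and the amino acid enzymes Asns, Phgdh, Psat1 and Psph. They are 10 of the 18193 genes measured, taken by name, and 19 of the 45101 probe sets on the array carry one of these symbols and no other. Expression was measured on Affymetrix mouse arrays in bone marrow cells sorted as lineage-negative, Sca1+, CD150+ and CD48+, which the study calls committed progenitors. The control mice were c-myc f2 N-myc f2, that is, floxed at the c-myc and at the N-myc gene, and the double knockout (dKO) mice were floxed in the same way and also carried MxCre, a Cre recombinase that interferon switches on in blood cells and in other tissues that respond to it. Mice of both groups were on a mixed background, were 8 weeks old and received 2 daily injections of pI-pC, an inducer of interferon, the last of them 3 days before the cells were taken. There were 3 arrays per group, each of a pool of 2 control mice or 3 dKO mice. Only the dKO mice carried MxCre, so loss of the Myc genes and presence of the transgene cannot be told apart.

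When a cell runs short of an amino acid, or when its endoplasmic reticulum or haem supply fails, kinases phosphorylate the translation initiation factor eIF2. General translation then slows, while the mRNA of Atf4 is translated more efficiently because of short upstream reading frames. ATF4 protein is a bZIP transcription factor that binds composite C/EBP-ATF elements and switches on genes for amino acid synthesis, uptake and tRNA charging, together with feedback and death genes such as Ddit3 (CHOP), Trib3 and Chac1. MYC is also known to drive genes of amino acid uptake and of serine synthesis, so the same enzymes stand under more than one regulator. Arrays measure mRNA and say nothing of ATF4 protein.

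The promoters of Asns and Chac1 are shown because they hold the letters TGATGNAA in the 250 bases before the annotated start. Of the 10 genes, only these did. The letters are a form of the core of the C/EBP-ATF element. The search covered both strands and no other form, and matches are in capitals. The promoters of Ddit3, the called gene with the smallest p, and of Phgdh, the only called gene that was lower, hold no match and are shown beside them. All sequences are from RefSeq (GRCm38.p6), written 5′ to 3′ in the direction of the gene.
Asns (chr6:7693210-7693459 on the minus strand): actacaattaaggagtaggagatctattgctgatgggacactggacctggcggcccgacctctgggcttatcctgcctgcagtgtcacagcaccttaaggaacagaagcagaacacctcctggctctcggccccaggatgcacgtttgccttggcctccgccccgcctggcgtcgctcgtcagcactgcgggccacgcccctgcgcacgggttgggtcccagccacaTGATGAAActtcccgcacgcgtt
Chac1 (chr2:119350992-119351241 on the plus strand): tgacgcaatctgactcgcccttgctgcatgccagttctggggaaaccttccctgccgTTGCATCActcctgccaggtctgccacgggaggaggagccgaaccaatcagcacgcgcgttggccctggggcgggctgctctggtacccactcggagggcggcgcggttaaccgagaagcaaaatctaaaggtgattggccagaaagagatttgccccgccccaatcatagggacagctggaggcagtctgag
Ddit3 (chr10:127290543-127290792 on the plus strand): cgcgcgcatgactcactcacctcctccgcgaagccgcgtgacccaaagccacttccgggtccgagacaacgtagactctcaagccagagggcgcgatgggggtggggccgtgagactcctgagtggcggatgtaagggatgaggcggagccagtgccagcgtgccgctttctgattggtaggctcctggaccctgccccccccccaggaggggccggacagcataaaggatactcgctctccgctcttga
Phgdh (chr3:98339970-98340219 on the minus strand): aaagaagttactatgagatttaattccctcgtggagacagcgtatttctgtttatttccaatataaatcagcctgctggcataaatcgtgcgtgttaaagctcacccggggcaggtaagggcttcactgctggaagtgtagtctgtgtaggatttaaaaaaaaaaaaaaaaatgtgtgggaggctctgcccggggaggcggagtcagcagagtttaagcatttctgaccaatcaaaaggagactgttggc
The Asns match starts 23 bases before the start site, and the Chac1 match, which reads on the opposite strand, begins 193 bases before it. Among all 32851 promoter windows of this length, 3.45% held the letters. The 10 genes had 12 windows, since Atf5 and Psat1 each have 2 annotated starts, and 2 of the 12 held a match. The E-box CACGTG, the site that MYC-MAX dimers prefer, was in 0 of the 12 windows and in 6.02% of all windows. No match says only that these letters are not in this window, and other forms of the C/EBP-ATF element were not searched for.

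All array medians lay between 5.91 and 5.94 on the log2 scale, and arrays correlated at 0.969 to 0.986 within a group and 0.956 to 0.971 between groups. Myc, measured by 1 probe set, read 10.79, 10.95 and 10.47 in the control pools and 7.99, 7.87 and 7.44 in the dKO pools. Of the 3 Mycn probe sets, 1 fell from 9.33 ± 0.35 to 4.05 ± 0.68, and the others changed by -0.83 and 0.34 without passing. The labels do not say whether these probe sets lie in the deleted exons. Control 1 is labelled as long-term stem cells under tissue, but with the same gate and kind of title as the rest. Xist, a transcript of the inactive X chromosome, read 9.10 in control 1 and 10.50 in dKO 1 but 5.03 to 5.86 in the other pools, so these pools stand apart. Results for the called genes of the set, and counts for several of the lists around it, are therefore also given without control 1 and dKO 1 together. The gate genes Slamf1 (CD150), Cd48 and Kit did not pass the test, with log2 changes of 0.78, 0.20 and -0.29; Kit is not named in the gate, and Ly6a (Sca1) was not analysed here.

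The set did not move in 1 direction. Ddit3, Ddit4 and Atf5 rose about 2-fold, and Phgdh fell by a similar factor. The other 6 did not pass, and of these Asns and Psph had changes nearest to 0. In the limma fit over all genes, 3 of the 10 were called higher and 1 lower at an adjusted p under 0.05, against 3.12% of all genes called higher and 2.85% called lower. The median log2 fold change (dKO minus control) of the 10 was 0.58, beside 0.05 over all genes. In 5 of the 10 every dKO array lay above every control array, which held for 12.7% of all genes, and in 1 every dKO array lay below, which held for 10.7%. Leaving out control 1 and dKO 1 together left 0 of the 4 calls. The changes were then -1.15 for Phgdh (adjusted p = 0.0502), 0.86 for Atf5 (0.125), 0.88 for Ddit3 (0.132) and 0.68 for Ddit4 (0.278), in a test with fewer degrees of freedom. At an unadjusted p under 0.05 the fit over all 6 arrays held 7 of the 10 genes, beside 3318 of all 18193 genes.

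**Figure D1:**
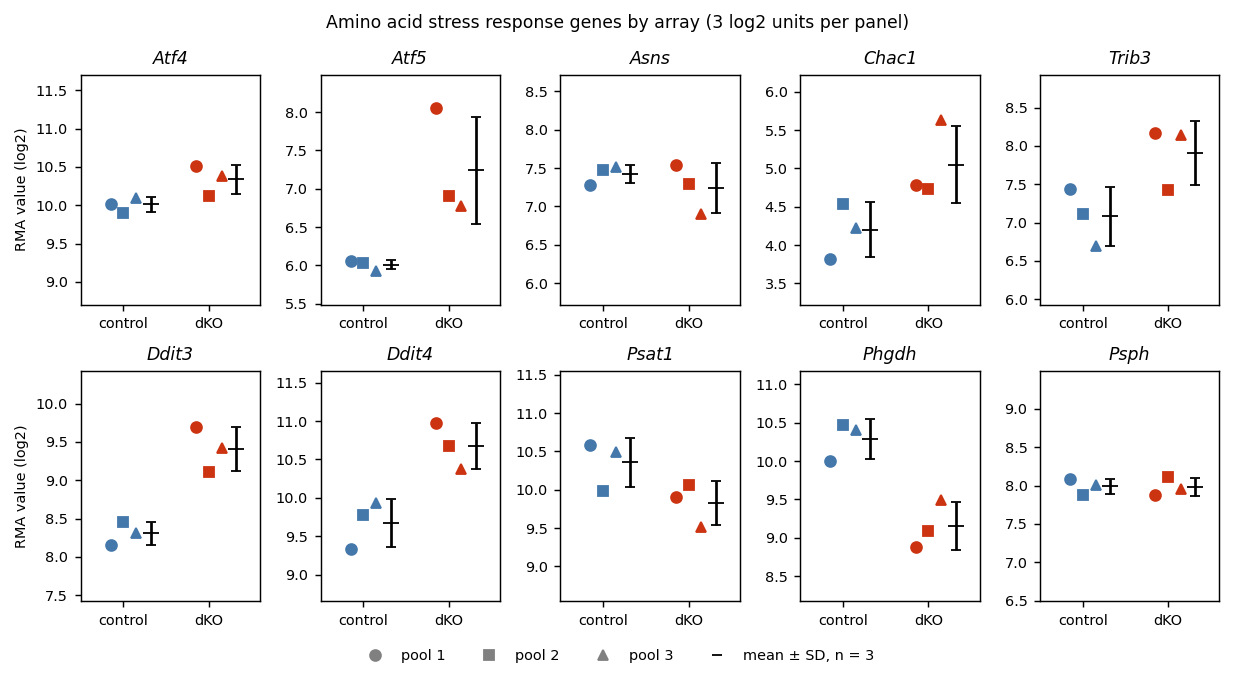
Log2 RMA values of the 10 genes, each by its brightest probe set, in the 3 control (blue) and 3 dKO (red) pools, with the mean and SD at the right of each group; every panel spans 3 log2 units. Atf5, Ddit3 and Ddit4 are higher and Phgdh lower in all 3 dKO pools, and Psph lies between 7.88 and 8.11 in every pool.

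Among the transcription factors, Atf4 itself did not pass the test. Its brightest probe set read 10.02, 9.90 and 10.10 in control and 10.51, 10.12 and 10.38 in dKO. The groups did not overlap, yet the lowest dKO pool lay only just above the highest control pool. The change of 0.33 ± 0.18 (SE) on the log2 scale did not pass (limma, adjusted p = 0.385), and its 95% interval ran from -0.07 to 0.72. A second Atf4 probe set read 8.56, 8.53 and 8.66 in control and 9.06, 9.45 and 9.11 in dKO. This is a clearer separation, of 0.62 ± 0.18, and it did not pass either (adjusted p over all probe sets = 0.115). The third and dimmest changed by 0.04 with overlapping groups. The brightest is an _x_at probe set, a kind whose probes may match several sequences, and the second is not. An increase of Atf4 mRNA beyond 0.72 lies outside the interval of the brightest probe set, and one beyond 1.03 outside that of the second.

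Atf5 encodes a bZIP factor close to ATF4 whose mRNA is translated by a like mechanism. Its single probe set read 6.06, 6.03 and 5.93 in control and 8.05, 6.91 and 6.78 in dKO. The control pools were nearly equal, and dKO 1 lay well above the other dKO pools. Atf5 rose by 1.24 ± 0.31, or 2.36-fold, with an adjusted p of 0.0496 that lies at the threshold. Adjusted over all probe sets rather than genes, the p was 0.0809. With single arrays left out the change was 0.83 (without dKO 1) to 1.47, and the call was lost with each array left out in turn except dKO 3 (adjusted p between 0.053, with dKO 1 left out, and 0.145, with control 3 left out). It was also lost with arrays centred on their median (0.053) and with cyclic loess (0.0531).

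Ddit3 encodes CHOP, a bZIP factor of the C/EBP family that ATF4 induces and that can lead a stressed cell to apoptosis. Its brighter probe set read 8.16, 8.46 and 8.31 in control and 9.69, 9.11 and 9.42 in dKO. Every dKO pool stood at least as far above the highest control pool as the control pools lay from each other. Ddit3 rose by 1.10 ± 0.20, or 2.14-fold (limma, adjusted p = 0.0122), the smallest p of the set. The call was kept without each array in turn other than control 3, without which the adjusted p was 0.0506 and the change still 1.10. The second probe set, dimmer at 6.56 ± 0.24 in control, changed by 0.32 ± 0.26 and did not pass (adjusted p over all probe sets = 0.644). With both probe sets averaged the change was 0.71 and kept its call (adjusted p = 0.0324).

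The stress effectors showed the same sign as Ddit3, and 1 of the 3 passed. Ddit4 encodes REDD1, which restrains the growth kinase complex mTORC1 and also answers to p53, hypoxia and glucocorticoids. Its single probe set read 9.33, 9.77 and 9.93 in control and 10.98, 10.68 and 10.38 in dKO. The lowest dKO pool exceeded the highest control pool. Ddit4 rose by 1.0 ± 0.23, or 2.01-fold, with an adjusted p of 0.0317 (0.0539 over all probe sets). The call was lost with each array left out in turn except dKO 3, and the adjusted p reached 0.106 without dKO 1, while the change stayed between 0.83 and 1.15.

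Chac1 encodes an enzyme that degrades glutathione and is a known target of the ATF4-CHOP branch. It read 3.82, 4.54 and 4.23 in control and 4.79, 4.73 and 5.63 in dKO. The groups did not overlap, although dKO 3 alone stood far above the controls, and all 6 values lay below the array median, where RMA values understate folds. The change of 0.85 ± 0.28 did not pass (adjusted p = 0.13) and was 0.56 without dKO 3. Trib3 encodes a pseudokinase that binds ATF4 and CHOP and damps the response. Its brighter probe set read 7.44, 7.11 and 6.69 in control and 8.17, 7.43 and 8.14 in dKO. Here dKO 2 lay within the control range and the other dKO pools above it. The change of 0.83 ± 0.26 did not pass (adjusted p = 0.116). The dimmer Trib3 probe set, at 5.0, 4.54 and 4.96 against 5.18, 5.12 and 5.79, did not overlap between the groups and changed by 0.53 ± 0.23 (adjusted p over all probe sets = 0.317).

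Of the 3 serine synthesis enzymes, 1 fell and 0 rose. Phgdh encodes phosphoglycerate dehydrogenase, which draws a glycolytic intermediate into serine synthesis. Its brightest probe set read 10.00, 10.47 and 10.40 in control and 8.88, 9.09 and 9.49 in dKO. All dKO pools lay below all control pools. Phgdh fell by 1.14 ± 0.22, or 2.20-fold (limma, adjusted p = 0.0155). The call was lost, at adjusted p of 0.0746, 0.0693, 0.058 and 0.0542, with control 2, control 3, dKO 1 and dKO 2 left out in turn, while the change stayed between -1.30 and -1.0. All 4 Phgdh probe sets had the same order of groups, with no overlap in any of them. The second brightest changed by -1.22 ± 0.24 and passed over all probe sets (adjusted p = 0.0305, against 0.0297 for the brightest). The remaining pair changed by -0.85 and -0.51 without passing. All 4 are of the _x_at kind, and 2 further probe sets that the annotation gives to Phgdh and a second symbol were left out, so Phgdh is uncertain as a single gene.

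Psat1 encodes the aminotransferase that follows in the pathway. Its brightest probe set read 10.59, 9.99 and 10.49 in control and 9.91, 10.06 and 9.51 in dKO. Of these, control 2 was as low as the higher dKO pools. The change of -0.53 ± 0.22 did not pass (adjusted p = 0.249). The second probe set changed by -0.57 ± 0.21, also without passing (adjusted p over all probe sets = 0.214), and its groups did not overlap. Psph encodes the phosphatase of the last step to serine. It read 8.09, 7.88 and 8.01 in control and 7.88, 8.11 and 7.96 in dKO, with the groups fully interleaved. Its change of -0.01 ± 0.17 had a 95% interval from -0.39 to 0.36, and its sign turned with quantile normalization (0.03) and cyclic loess (0.04).

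Asns encodes asparagine synthetase, a standard readout of ATF4 activity. Its brighter probe set read 7.28, 7.47 and 7.51 in control and 7.54, 7.29 and 6.90 in dKO. The dKO pools spanned the control range on both sides. The change of -0.18 ± 0.20 did not pass (adjusted p = 0.739), with a 95% interval from -0.64 to 0.28, and it was -0.33 without dKO 1 and -0.01 without dKO 3. The second probe set changed by 0.00 ± 0.27, with dKO 1 at 7.80 above and dKO 2 and 3 at 6.97 and 6.82 below all control pools. An increase of Asns as large as the 1.10 of Ddit3 lies outside both intervals (upper bounds 0.28 and 0.60). Asns and Chac1, whose promoters hold the letters TGATGNAA, were not among the 4 called genes. Chac1 nevertheless changed by 0.85 without overlap of the groups, and whether the letters bear on any change was not tested.

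**Figure D2:**
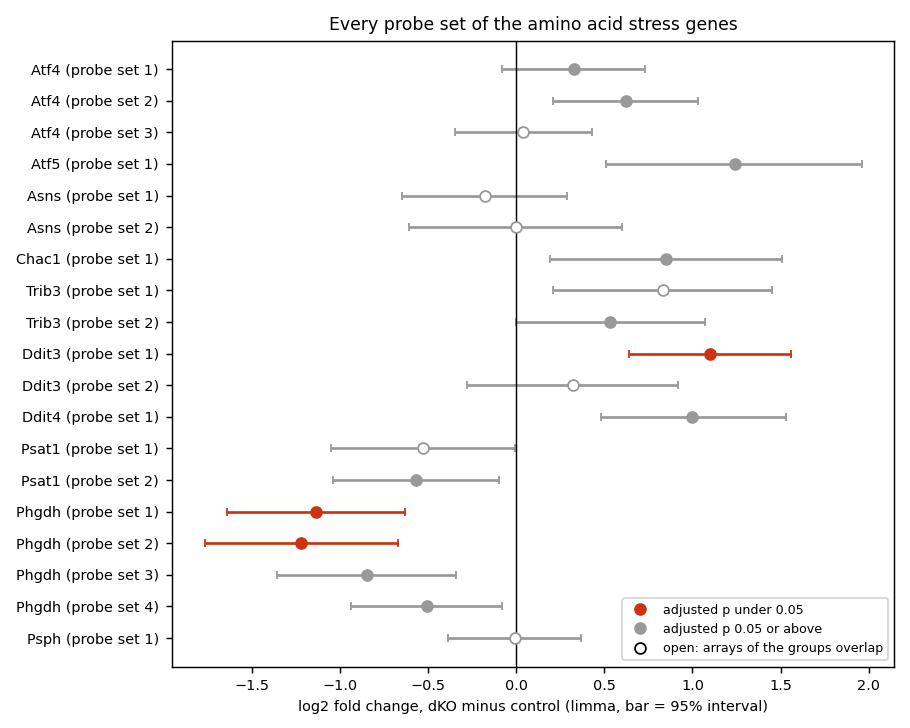
Log2 fold change (dKO minus control) of all 19 probe sets with 95% intervals from limma; red marks an adjusted p under 0.05 over all probe sets, and open circles mark probe sets whose arrays overlap between groups. Ddit3 probe set 1 (1.10) and Phgdh probe sets 1 and 2 (-1.14 and -1.22) pass, and the intervals of Asns and Psph span 0.

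At the level of probe sets, 3 of the 19 were called, against 3.60% of all probe sets; 1 was called higher, where 1.83% of all probe sets were, and 2 lower, where 1.78% were. In 7 of the 19 the lowest dKO array exceeded the highest control array (10.7% of all probe sets), and in 5 the highest dKO array was below the lowest control array (10.6%). The median of the 19 was 0.04, with the 4 Phgdh and 2 Psat1 probe sets each counted. Probe sets of a gene share its RNA and are not replicates.

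The dKO pools did not move in step. The pool dKO 1 was the highest of the 3 in 6 of the 10 genes, namely Atf4, Atf5, Asns, Trib3, Ddit3 and Ddit4, and it was also the lowest in Phgdh. In Atf5 it stood 2.04 above the control mean, against 0.90 and 0.77 for dKO 2 and dKO 3. For Chac1 the order was another, with dKO 3 at 1.43 and dKO 1 and 2 at 0.59 and 0.53. The pool dKO 3 was the lowest in Asns (-0.52) and Psat1 (-0.85) and the least changed in Ddit4 (0.71) and Phgdh (-0.80). The pool dKO 2 was the least changed in Trib3 (0.35), Ddit3 (0.80) and Atf4 (0.12).

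**Figure D3:**
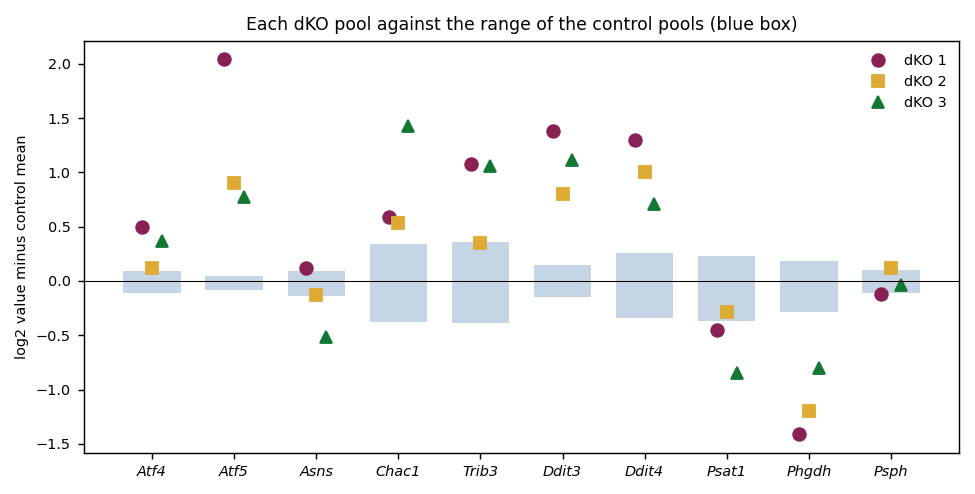
Log2 value of each dKO pool minus the mean of the 3 control pools for the 10 genes, each by its brightest probe set; the blue box spans the control pools. All 3 dKO pools lie outside the box in Atf4, Atf5, Chac1, Ddit3, Ddit4 and Phgdh, and Atf5 in dKO 1 lies farthest, at 2.04.

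By the root mean square difference of log2 values over the 6 arrays, each gene centred on its own mean, the profile most like that of Ddit3 was Tal1 (0.102), followed by Nt5dc2 (0.122) and Slc20a1 (0.131). Those most like Atf4 were Oas1f (0.037), Nmur1 (0.052) and Uba1y (0.053). By the same measure the Atf4 values lay only 0.21 from their own mean, so small differences here say little about likeness.

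Upstream of Atf4, no change was called. The list named 16 genes for eIF2, its kinases, regulators of the kinase GCN2, the exchange factor eIF2B and the eIF2 phosphatase. All but Eif2s1, which encodes a subunit of eIF2, were measured by a probe set with 1 symbol, which left 15 genes. Of these, 0 passed in limma in either direction, against 5.97% of all genes. In the same fit 1 of the 15 had an unadjusted p under 0.05, beside 3318 of all 18193 genes. That gene was Eif2ak4, which encodes the amino acid sensor GCN2, at -0.48 (adjusted p = 0.218). The median of the list was -0.02. Regulation at this step is by phosphorylation, which arrays do not measure.

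Of 13 bZIP partners and relatives, 2 rose and 0 fell (15.4%, beside 5.97% of all genes called in either direction), with a median of -0.02. Atf3, a stress-induced bZIP factor downstream of ATF4, read 4.78, 4.97 and 5.09 in control and 7.60, 6.23 and 6.85 in dKO. As with Atf5, dKO 1 was the highest pool. Atf3 rose by 1.95 ± 0.31 (adjusted p = 0.00665). Its control values all lay below the array median, and the filter at a mean level of 6 removes this gene. Jdp2, a repressor that dimerizes with ATF and AP-1 proteins, rose by 1.28 ± 0.23 (adjusted p = 0.0118), although its other probe set changed by 0.06. Both calls held without each array in turn. The C/EBP partners of ATF4, Cebpb (-0.16) and Cebpg (-0.13), did not pass. The C/EBP genes Cebpd (-0.67, adjusted p = 0.0597) and Cebpa (-1.27, adjusted p = 0.191) were lower without passing, and the groups did not overlap in Cebpd.

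Of 35 further ATF4 targets, 4 rose and 1 fell (14.3%, beside 5.97% of all genes), with a median of 0.13. Vldlr, a lipoprotein receptor, rose by 2.48 ± 0.26, though by 1.5 with its 6 probe sets averaged. Nupr1, a stress-response chromatin protein, rose by 1.85 ± 0.28 and Sesn2, which encodes the leucine sensor sestrin 2 and is also a p53 target, by 1.37 ± 0.22. The 2 probe sets of Sesn2 ran from 0.51 to 1.37, and their mean changed by 0.94 and passed (limma, adjusted p = 0.0205). The calls of Vldlr, Nupr1 and Sesn2 held without each array in turn. Ndrg1, which also answers to hypoxia, rose by 0.98 ± 0.21 and lost its call without control 1, control 2, dKO 2 or dKO 3 (adjusted p up to 0.107), with changes of 0.82 to 1.16 over the single arrays left out. Slc7a5, the large neutral amino acid transporter, fell by 0.73 ± 0.16 and kept its call only without dKO 3 (adjusted p otherwise up to 0.112), with changes of -0.78 to -0.67. Its heavy-chain partner Slc3a2 changed by 0.47 (adjusted p = 0.284), and the cystine transporter Slc7a11, at 2.78 ± 0.17 in control and 3.03 ± 0.19 in dKO, lay near the lower end of the scale.

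Of 19 cytosolic tRNA synthetases, most of them known ATF4 targets, 1 rose and 0 fell (5.26%, beside 5.97% of all genes), with a median of -0.04. This was Aars, the alanine enzyme, at 7.84, 8.10 and 7.84 in control and 8.82, 8.73 and 8.82 in dKO. Its change of 0.86 ± 0.17 (adjusted p = 0.0159) lost its call without control 1, control 3 or dKO 1 (adjusted p up to 0.0818) and stayed between 0.82 and 0.95.

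In the serine, glycine and folate pathway that Phgdh, Psat1 and Psph feed, the enzymes that passed were all lower. Of 13 serine, glycine and folate enzymes 0 rose and 3 fell (23.1%, beside 5.97% of all genes), with a median of -0.36. Mthfd1, a cytosolic folate enzyme, fell by 1.04 ± 0.23, and each of its 3 probe sets lay between -1.11 and -1.04. Gcsh, a carrier of the glycine cleavage system, fell by 0.88 ± 0.19. Shmt2, which turns serine into glycine in mitochondria, fell by 0.82 ± 0.20, but by 0.47 without _x_at and _s_at probe sets (adjusted p = 0.25), and its 4 probe sets ran from -0.82 to -0.27. With single arrays left out in turn, Mthfd1 lost its call in 5 of 6 fits, Gcsh in 4 and Shmt2 in 5, and the adjusted p reached 0.12, 0.131 and 0.142. The changes in those fits ran from -1.25 to -0.90 for Mthfd1, from -1.0 to -0.75 for Gcsh and from -1.0 to -0.67 for Shmt2. Mthfd2, the mitochondrial folate enzyme that ATF4 induces, did not pass (0.37 ± 0.23).

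Of 15 other amino acid enzymes, 0 rose and 2 fell (13.3%, beside 5.97% of all genes), with a median of -0.19. Got2, the mitochondrial aspartate aminotransferase, fell by 1.20 ± 0.25, although its 4 probe sets ran from -1.20 to -0.08 and their mean changed by -0.49 without passing (adjusted p = 0.0851). Its call was also lost without control 1, control 2 or control 3 (up to 0.0883), with changes of -1.39 to -0.92 over the single arrays left out. Prodh, which degrades proline, fell by 0.82 ± 0.17 and lost its call without control 2, control 3, dKO 1 or dKO 2 (up to 0.107), with changes of -0.91 to -0.72.

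The neighbouring branches of the unfolded protein response were also read, since Ddit3 lies downstream of them too. Of 23 genes of the ER chaperone response, 4 rose and 0 fell (17.4%, beside 5.97% of all genes), with a median of 0.31. A positive change was seen in 21 of the 23, and in 10481 of all 18193 genes. The 2 with negative changes were Atf6 and Ern1, which encode the sensors of these branches. Atf6 changed by -0.62 without overlap of the groups (limma, adjusted p = 0.0978) and Ern1 by -0.21, and neither passed. Xbp1, the transcription factor of the IRE1 branch, rose by 1.42 ± 0.17 (adjusted p = 0.0018), with its 4 probe sets between 1.29 and 1.49, and kept its call without each array in turn. The ER proteins Creld2 (0.89), Dnajb11 (0.74) and Manf (0.75) rose less. With single arrays left out in turn, Creld2 lost its call in 4 of 6 fits, Dnajb11 in 5 and Manf in 6, and the adjusted p reached 0.108, 0.145 and 0.139. The changes in those fits were 0.79 to 1.01 for Creld2, 0.67 to 0.79 for Dnajb11 and 0.67 to 0.83 for Manf. Hspa5, the ER chaperone BiP, changed by 0.48 (adjusted p = 0.158). Beside Ddit4, of 12 other restraints of mTORC1 1 rose, Sesn2, counted above, and 1 fell (16.7%, beside 5.97% of all genes), with a median of -0.09. Deptor, a direct inhibitor of mTOR, fell by 2.34 ± 0.25, though by 0.75 without _x_at and _s_at probe sets, and its 6 probe sets ran from -2.34 to -0.49.

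**Figure D4:**
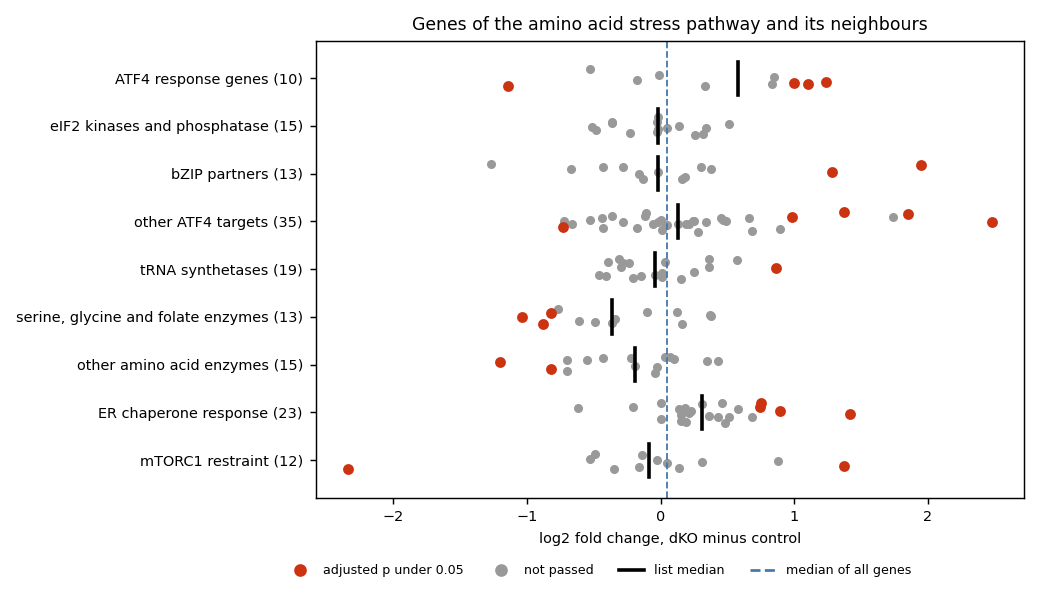
Log2 fold change (dKO minus control) of each gene in the 10-gene set and in the lists around it, with the number of genes measured in brackets; red marks an adjusted p under 0.05, the black bar the list median and the dashed line the median of all genes (0.05). Red points lie to the right for bZIP partners and the ER chaperone response and to the left for serine, glycine and folate enzymes.

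Markers of other cell types moved with the groups at the same time. The mean level per array of 13 T and NK cell markers was 6.29 to 6.86 in control and 7.56 to 8.00 in dKO, and 7 rose, where 3.12% of all genes were called higher and 2.85% lower. That of 12 megakaryocyte markers was 7.03 to 7.19 and 8.13 to 8.41 (6 rose), and that of 10 mast cell and basophil markers 6.74 to 6.82 and 7.66 to 8.46 (5 rose). The 10 erythroid markers lay at 7.99 to 8.14 and 8.44 to 8.90 (2 rose). The mean of 15 granulocyte and monocyte markers was 8.33 to 8.81 in control and 6.55 to 7.70 in dKO (4 fell, 1 rose). That of 13 B cell and lymphoid progenitor markers was 7.05 to 7.47 and 5.91 to 6.34. In this list 5 fell, namely Dntt (-4.99), Flt3 (-2.73), Rag1 (-2.28), Spib (-1.94) and Rag2 (-1.46). The rest of this list did not pass and went both ways. Changes were positive for Cd79a (0.40), Cd79b (0.26), Ms4a1 (0.26) and Pax5 (0.10). They were negative for Igll1 (-0.73), Vpreb1 (-0.67), Ebf1 (-0.21) and Il7r (-0.21). The part of these shifts in the results for the amino acid stress genes was not tested. In a sorted bulk sample, more RNA per cell and more cells of a type that expresses a gene cannot be told apart.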

How the data were processed

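Gene expression was measured on 6 Affymetrix arrays. The authors deposited log2 values made with RMA, per the submitters' processing notes, whose version and handling of the arrays together or apart is not given in the sources used here. RMA corrects background, normalizes arrays and summarizes probes, and compresses the folds of dim genes. RNA was amplified in 2 rounds before labelling, per the labels' protocols. Precision is limited by the number of arrays.

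Platform annotation gave 1 symbol to 34945 of the 45037 probe sets that are not controls; symbols were updated through gene identifiers to RefSeq (GRCm38.p6) for 34741. No filter on low values was set. A gene was taken by the brightest of its probe sets on average. Groups came from sample titles. dKO and control were compared in R 4.3.3 by limma 3.58.1 (a linear model with a term for group and moderated variances, two-sided). P-values were adjusted by Benjamini-Hochberg over the 18193 genes, and separately over all probe sets, and called under 0.05. Errors are SD over 3 pools or SE of the fit; intervals are 95%. The fit was tested on simulated data. These had independent normal noise, and no result here rests on them. Named genes were all probe sets of the 10 genes and the list genes that passed (up to 4 with the smallest p per list). Also named were the targeted and gate genes, and the 3 genes with profiles nearest to Atf4 and to the member with the smallest p. Eif2ak4, Cebpa, Cebpb, Cebpd, Cebpg, Slc7a5, Slc3a2, Slc7a11, Mthfd2, Hspa5, Xist and the 13 B cell and lymphoid progenitor markers were added to these with their values known. The genes and lists were chosen with earlier results of these data known. Alternatives covered a filter on dim genes, the choice of probe set, 3 scalings, the model of the variance, weights for arrays, a replicate block and arrays left out. Figures were drawn with matplotlib 3.10.9.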

Additional observations from a re-analysis of the deposited data

How the results depend on the processing

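Direction was kept under all 17 alternatives in Atf4, Atf5, Asns, Trib3, Ddit3, Ddit4 and Psat1, and under the 16 that could be applied in Chac1, which the filter at a mean level of 6 removes, and in Phgdh, whose probe sets are all _x_at, so that it kept its own in the fit without that kind. The choice of probe set could not change Atf5, Chac1, Ddit4 and Psph, which have 1 each. Changes near 0 turned sign. Psph changed by 0.03 with quantile normalization, 0.04 with cyclic loess and 0.09 without control 1 and dKO 1 together, and by -0.08 to 0.04 with single arrays left out. The second Asns probe set changed by 0.03 with quantile normalization, 0.04 with cyclic loess and 0.20 with array weights, and by -0.31 to 0.18 with single arrays left out. The dimmest Atf4 probe set changed by -0.02 without control 1 and dKO 1 together and by -0.02 to 0.15 with single arrays left out.

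Counts changed with the arrays used, the model of the variance and the weights. Without control 1 and dKO 1 together, 0 of the 10 genes were called higher and 0 lower, as were 0 probe sets in each direction, and 578 of all genes were called. The lists then held 3 other ATF4 targets, 0 tRNA synthetases, 1 serine, glycine or folate enzyme, 1 ER chaperone gene and 0 other amino acid enzymes. Fewer arrays give fewer degrees of freedom. With single arrays left out, 0 to 3 of the 10 genes were called higher and 0 to 1 lower, 0 to 1 and 0 to 3 of the probe sets, and 572 to 1081 of all genes; the lists held 3 to 5 other ATF4 targets, 0 to 1 tRNA synthetases, 0 to 2 serine, glycine and folate enzymes, 1 to 4 ER chaperone genes and 0 to 2 other amino acid enzymes.

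Whether the replicate numbers pair the pools was not settled. Deviations of same-numbered pools from their group means correlated at 0.06, 0.00 and 0.02 over genes. Those of pools with different numbers correlated at -0.05 to 0.04. Correlations over all genes cannot exclude pairing that touches few genes, and Xist was high in both control 1 (9.10) and dKO 1 (10.50). With the replicate block, 2 of the 10 genes were called higher (Ddit4 lost its call, adjusted p = 0.0667) and 1 lower, 0 probe sets higher, 1 ER chaperone gene and 0 serine, glycine and folate enzymes. Array weights gave 1697 calls over all genes, 3 probe sets higher, 7 ER chaperone genes and 4 other amino acid enzymes. A trend in the variance gave 2 probe sets higher and 8 ER chaperone genes, also in its robust form. The filter on dim genes gave 3 probe sets higher and 1 other amino acid enzyme, since it removed Prodh. The mean of probe sets gave 1 such enzyme, since Got2 lost its call (limma, adjusted p = 0.0851). Quantile normalization and cyclic loess each gave 2 probe sets higher. The causes of the other differences were not tested. The median of all genes moved between 0.00 and 0.09 over all alternatives. Over the 17 alternatives the limma adjusted p reached 0.162 for Aars, 0.19 for Slc7a5, 0.209 for Gcsh and 0.295 for Shmt2. It reached 0.261 for Creld2, 0.184 for Dnajb11 and 0.165 for Manf. Jdp2, Vldlr, Nupr1, Sesn2, Xbp1 and Deptor kept their calls under all 17.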
